A study of Coryphaena hippurus with 21 samples.

Results

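Mahi-mahi (Coryphaena hippurus) larvae that had developed in slick oil at 0.5% were compared with larvae that had developed in clean seawater, by small RNA sequencing of 3 libraries per group, 6 of the 21 libraries of the series. Slick oil is oil skimmed from the sea surface after the Deepwater Horizon spill. It was given as a dilution of its high-energy water-accommodated fraction (HEWAF), which is seawater blended with oil at high speed, and 0.5% was the lowest of the slick doses. Libraries L4, L5 and L6 are slick oil 0.5% and libraries C4, C5 and C6 are control, named as the deposited columns are. Slick oil at 1% and 2% and source oil (oil from the well) at 0.5%, with 3 libraries each, are used below to show where the 0.5% slick group differs from them.

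All groups share the same origin and handling. Embryos came from natural spawns of wild-caught captive broodstock, were placed in beakers with no change of water, and were sampled as whole larvae at 48 hours post fertilization (hpf). No genotype, strain or sex is given, and the RNA was taken from pooled samples. Replicate beakers are mentioned in the labels, but not which beaker each library came from, so each p-value below measures only the spread between these libraries. In whole larvae, fewer cells of a type and less of a miRNA per cell cannot be told apart.

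MicroRNAs are short RNAs that guide Argonaute proteins to messenger RNAs and lower their translation and stability. They are cut from hairpins, either arm of which can be kept, and related hairpins form families that share a number and often a seed. Many are made mainly in 1 tissue, so the profile of a whole fish larva is a sum over muscle, brain, vessels, blood, skin and gut. Such profiles are of interest for crude oil because the heart, the eye and the nervous system of fish embryos are known targets of its aromatic compounds.

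The count table of the 0.5% slick exposure listed 201 miRNA names, and they fall into 117 families by number. The names carry the prefixes of 38 species, among them medaka (ola), salmon (ssa) and human (hsa). A name is thus that of a miRNA of another species, not of a mahi-mahi gene. The libraries held 8736995, 7692673 and 7790451 counts in slick L4, L5 and L6, against 7234174, 7082849 and 6686105 in control C4, C5 and C6. The muscle family miR-206 and the neural family miR-9 together took 42.9 to 57.1% of the counts in slick libraries and 46.1 to 58.9% in controls. Names for muscle (miR-1, miR-133, miR-206, miR-499), nervous system (miR-9, miR-124), endothelium (miR-126), blood (miR-144, miR-142), epithelium (miR-200, miR-203, miR-205), eye and hair cells (miR-96, miR-182, miR-183, miR-184, miR-204), liver (miR-122), gut (miR-192, miR-194) and cartilage (miR-140) were all counted. The red cell family miR-451 had no name among the 201 listed and could not be tested. A principal component analysis of the 119 names without a 0 put 72.7% of the variance on its first axis, with the slick libraries at 5.1, 6.1 and 5.3 and controls at -6.54, -4.26 and -5.71. These names include ola-miR-30a-5p, with 141, 138 and 175 counts in slick libraries, against 47640, 27374 and 41746 in controls. How much of the axis rests on this name, described below, was not tested.

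Counts were tested in 2 ways, with edgeR's quasi-likelihood test and Benjamini-Hochberg adjustment over all features tested, and a feature was called at an adjusted p under 0.05. The first takes single names with a count above 0 in all 6 libraries, 114 of which passed the low-count filter and 5 of which did not. The second takes family totals, 102 of which passed and 15 of which did not. Levels are CPM, counts scaled to a common library size with TMM factors, and fold changes are log2 of slick oil over control with an approximate standard error (SE).

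In slick oil larvae the endothelial miR-126, the miR-23 family, the activity-linked neuronal pair miR-132 and miR-212, miR-92 and the fish miRNAs miR-462 and miR-734 were higher than in controls. The muscle miR-499, the red blood cell miR-144, the connective tissue miR-214 and the fish miRNA miR-737 were lower. These 11 families were called the same way in each of 4 forms of the total. The first were the plain sum, the sum with near-equal names merged, and the highest name per library. The last was the merged sum with control reads listed under further names added. In each form no slick library fell within the range of the controls. The counts of miR-126, miR-92, miR-462, miR-734, miR-499, miR-144 and miR-737, which have 1 name each, are the same in every form. Of the 11, only miR-132 gained control reads in the last form. The forms are thus not separate tests. Of the 102 family totals, 15 were called (14.7%), 10 higher (9.8%) and 5 lower (4.9%), and 28 had an unadjusted p under 0.05. The groups did not overlap for 34 (33.3%).

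The miR-23 family is made from a cluster with miR-27 and miR-24 and is known from endothelial cells. Its total was 1357, 1532 and 1589 CPM in slick libraries, against 408, 503 and 518 CPM in controls, a 3.13-fold difference (log2 fold change 1.65 ± 0.15 SE, adjusted p = 0.00691 by edgeR's quasi-likelihood test). The lowest slick library lay above the highest control by more than either group's own range. All 3 names of the family moved alike, with log2 fold changes of 1.75 for oar-miR-23b, 1.81 for ssa-miR-23b-5p and 1.39 for dre-miR-23a-3-5p. The names oar-miR-23b and ssa-miR-23b-5p carry the same letter and had similar counts. Whether they hold the same reads was not tested, so they are not separate support. The neighbours in that cluster did not pass the test, at 0.29 ± 0.18 for efu-miR-27b and -0.05 ± 0.16 for fru-miR-24-5p.

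miR-126 lies in an intron of the vascular gene Egfl7 in vertebrates and is a standard endothelial marker. Its only name, tgu-miR-126-5p, gave totals of 10234, 24475 and 24785 CPM in slick libraries, against 5833, 6654 and 5382 CPM in controls (log2 fold change 1.74 ± 0.39 SE, adjusted p = 0.0433 by edgeR's quasi-likelihood test). The groups did not overlap, and slick library L4 stood far below L5 and L6. L4 was also the slick library with the highest level of oan-miR-145-5p, a smooth muscle miRNA, at 182 CPM against 69.4 and 97.2 CPM in L5 and L6, while the controls held 202, 194 and 187 CPM.

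miR-132 and miR-212 come from a single locus that neuronal activity switches on in mammals. The miR-132 total was 101, 105 and 94.7 CPM in slick libraries, against 22.1, 20.7 and 12.5 CPM in controls (log2 fold change 2.44 ± 0.27 SE, adjusted p = 0.00691 by edgeR's quasi-likelihood test). With control reads listed under ssa-miR-132-4-5p added, the log2 fold change was 1.89 ± 0.25, and raw family counts were 871, 857 and 713 in slick libraries, against 151, 269 and 153 in controls. The miR-212 total was 372, 345 and 393 CPM in slick libraries and 240, 234 and 208 CPM in controls (0.70 ± 0.12). Both miRNAs were separated between the groups in every library, miR-132 by the wider margin.

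The miR-92 hairpins belong to the miR-17-92 clusters, which are known for driving cell proliferation and blood and vessel development. The total, carried by sha-miR-92a, was 21561, 24600 and 22050 CPM in slick libraries, against 9569, 8098 and 8925 CPM in controls (log2 fold change 1.36 ± 0.13 SE, adjusted p = 0.00691 by edgeR's quasi-likelihood test). By mean level it was the most abundant of the families that rose. The other names of these clusters lay between -0.30 ± 0.16 for ola-miR-19b and 0.68 ± 0.21 for dre-miR-93.

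Among miRNAs first named in fish, miR-462 forms a teleost cluster with miR-731 that is known to respond to hypoxia in zebrafish. Its total was 846, 1751 and 1444 CPM in slick libraries, against 330, 385 and 320 CPM in controls (log2 fold change 1.97 ± 0.31 SE, adjusted p = 0.0155 by edgeR's quasi-likelihood test). Its cluster partner ola-miR-731 stood at 681, 427 and 548 CPM in slick libraries and 571, 485 and 471 CPM in controls (0.12 ± 0.19), so the groups overlapped for miR-731 and not for miR-462. miR-734 totals were 1785, 2247 and 2242 CPM in slick libraries and 1216, 1253 and 1128 CPM in controls (0.80 ± 0.14). miR-737 totals were 48.3, 55.5 and 57.9 CPM in slick libraries and 90.5, 107 and 82.5 CPM in controls (-0.79 ± 0.17).

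The lowered family with the largest fold change of these was miR-499, which lies in an intron of the slow and cardiac myosin gene Myh7b. Its total was 534, 541 and 607 CPM in slick libraries, against 1720, 1373 and 1356 CPM in controls (log2 fold change -1.40 ± 0.15 SE, adjusted p = 0.00691 by edgeR's quasi-likelihood test). The highest slick library lay far below the lowest control. The skeletal muscle name ssa-miR-206-5p did not pass the test, at 338822 ± 68349 CPM in slick libraries and 289916 ± 73644 CPM in controls (SD, n = 3 each, log2 fold change 0.23 ± 0.21).

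miR-144 is transcribed with miR-451 in red blood cell precursors. Its total was 216, 157 and 167 CPM in slick libraries, against 381, 353 and 397 CPM in controls (log2 fold change -1.07 ± 0.17 SE, adjusted p = 0.0155 by edgeR's quasi-likelihood test). miR-214, made with miR-199 from a transcript of skeletal and connective tissue, stood at 203, 235 and 205 CPM in slick libraries and 500, 375 and 416 CPM in controls, 0.498 times the control level. Its partner aca-miR-199a-5p held 4787, 8599 and 9986 CPM in slick libraries and 11784, 13894 and 11576 CPM in controls (-0.67 ± 0.26). The groups did not overlap for either, and miR-199 did not pass the test (adjusted p = 0.0713 by edgeR's quasi-likelihood test).

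The number of family totals called was 4 without L5, 5 without L6, 6 without C4, 7 without C5 and 5 without C6. Leaving out L4 changed less. Of the 15 totals called with all libraries, only those of miR-737 and miR-30 missed the threshold without L4. The totals of miR-23, miR-92, miR-132 and miR-499 stayed called with any 1 library left out. Those of miR-144, miR-462, miR-212, miR-734 and miR-126 missed the threshold when any 1 of L5, L6, C4, C5 and C6 was left out. That of miR-214 missed it without L5, L6, C4 or C6, and that of miR-737 with any 1 library left out. For miR-144, miR-462, miR-214, miR-212, miR-734, miR-737 and miR-126 the adjusted p reached 0.0859, 0.084, 0.0859, 0.111, 0.112, 0.121 and 0.168 by edgeR's quasi-likelihood test. As single names the same miRNAs were called with any 1 library left out, except aca-miR-212-5p, whose adjusted p was 0.0509 without C6.

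**Figure D1:**
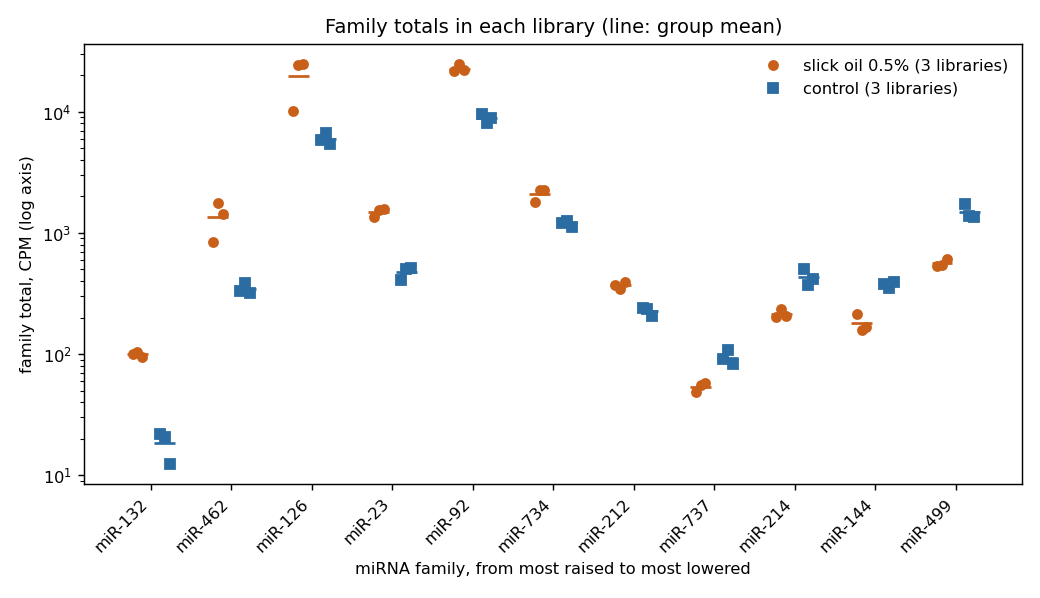
Family totals in CPM (log axis) in each library for the 11 families called in every form of the total, ordered from most raised to most lowered. Circles are the 3 slick oil 0.5% libraries, squares are the 3 control libraries and the short lines are group means. No family shows overlap between the groups, and for miR-126 library L4 (10234 CPM) sits below L5 and L6 (24475 and 24785 CPM).

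Taken name by name, the difference between the groups touched more of the table. Of the 114 names, 44 were called (38.6%), 20 higher (17.5%) and 24 lower (21.1%), and 49 had an unadjusted p under 0.05. The slick and control libraries did not overlap for 42 of the 44, the exceptions being ssc-let-7i and oar-miR-16b, while over all 114 names they did not overlap for 56 (49.1%). The 44 names belong to 34 families. The count was 29 without L5, and 30 to 45 with another library left out, and 20 of the 44 names missed the threshold in at least 1 of these sets (adjusted p up to 0.187 by edgeR's quasi-likelihood test). The median log2 fold change over the 114 names was -0.03.

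Beside the families above, the names with the smallest p among those raised were oan-miR-458-5p (546, 370 and 342 CPM in slick libraries, against 134, 220 and 192 CPM in controls, log2 fold change 1.20 ± 0.24) and ssa-miR-181b-5p (2358, 2594 and 2025 CPM in slick libraries, against 1102, 1525 and 1270 CPM in controls, 0.84 ± 0.18). miR-181b belongs to a family known from lymphocytes and the retina. For both, the lowest slick library lay above the highest control.

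Among the lowered names, cgr-miR-26a was the most abundant after aca-miR-9-5p. miR-26 sits in introns of the phosphatase genes of the CTDSP family, which restrain neuronal genes. It held 34156, 26743 and 32867 CPM in slick libraries, against 58541, 61588 and 54041 CPM in controls (log2 fold change -0.89 ± 0.16, adjusted p = 0.00296 by edgeR's quasi-likelihood test). The plain family total, in which aca-miR-26-5p has a 0 in L5 beside 235688 counts in L4, gave -1.12 ± 0.40 and was not called, and the total with near-equal names merged gave -0.93 and was. The names ola-miR-101b-3p (-1.17 ± 0.19), ola-miR-101a-5p (-1.13 ± 0.28) and ssa-miR-152-3p (-0.55 ± 0.19), whose families repress chromatin enzymes in mammals, were lower too.

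The neural name aca-miR-9-5p, the most abundant neural miRNA of the table, was called lower at -0.42 ± 0.14 (281329 ± 34335 CPM in slick libraries and 377221 ± 34051 CPM in controls, SD, n = 3 each, adjusted p = 0.037 by edgeR's quasi-likelihood test). It kept its call in 7 of 16 alternatives, and its adjusted p was 0.112 without L4, 0.117 without L5, 0.104 without C4 and 0.133 without C6. The rarer oha-miR-9-4-5p fell by 1.27 on the log2 scale in slick libraries.

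The authors' deposited table lists 103 names for this exposure and gives 44 of them an adjusted p under 0.05, of which 41 are among the 44 called here. The authors' deposited table calls dre-miR-153b-5p, ola-miR-124-5p and tgu-miR-196, for which the test here gave adjusted p of 0.0606, 0.0606 and 0.143 (edgeR's quasi-likelihood test). The names called here alone were rno-miR-133b-5p, ssc-let-7i and oar-miR-16b.

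Single names and totals did not always tell the same story. Of the 44 called names, 17 had a family total called the same way, 26 a total not called and 1 a total called the other way, and for 6 the total lay on the other side of 0. Among the 26 are the names of miR-458, miR-107, miR-7132, miR-728, miR-93, miR-34, miR-152 and miR-16, families of 1 name. For these, name and total hold the same counts, so the calls differ only through the features fitted and adjusted together. The name with a total called the other way was ola-miR-30a-5p, with 141, 138 and 175 counts in slick libraries, against 47640, 27374 and 41746 in controls. A second miR-30 name, gga-miR-30e-5p, had 59171, 84270 and 92226 counts in slick libraries and 0 in every control. miR-30 is a family of near-identical miRNAs made in most tissues, and its total was 13379, 12620 and 15237 CPM in slick libraries, against 7550, 9236 and 9031 CPM in controls (log2 fold change 0.68 ± 0.15, adjusted p = 0.0433 by edgeR's quasi-likelihood test).

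Such counts of 0 were common. The table held 238 of them, and 189 of the 238 were for names with 100 counts or more elsewhere in the same table. None was in L4, so every name listed was counted in that slick library. At 0 in all controls were 23 names, and at 0 in all slick libraries 0 names. The listed names thus favour the slick group, and the part of this in the family totals was not tested. The deposited control columns are the same in the tables of all 6 exposures (0 of 2235 shared cells differ), so control reads of a family that other tables list under other names could be added. The slick libraries stand in 1 table and cannot be completed this way, so this step can raise the controls and not the slick libraries. With it, and with near-equal names merged as well, 12 of 106 family totals were called (11.3%), 7 higher (6.6%) and 5 lower (4.72%).

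The miR-30 total then stood at 115710, 102982 and 114740 counts in slick libraries, against 78996, 68218 and 73990 in controls, and its log2 fold change was 0.38 ± 0.14 (adjusted p = 0.164 by edgeR's quasi-likelihood test). Control reads had appeared under oar-miR-30c and tni-miR-30c, among other names. The counts of the groups did not overlap, and the call did not hold.

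The neural family miR-129 was the clearest case. In the table of this exposure its highest name held 20333, 23046 and 25171 counts in slick libraries, against a listed 0 in all 3 controls, and its total was called higher. In the tables of other exposures the same control libraries hold 16494, 15675 and 15130 counts under tch-miR-129-5p, mmu-miR-129-5p and cgr-miR-129. The log2 fold change with these was 0.33 ± 0.14 (adjusted p = 0.217 by edgeR's quasi-likelihood test).

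The family of miR-125, the vertebrate counterpart of the worm timing miRNA lin-4, behaved likewise. Its total was called higher at 2.66 ± 0.42, with aca-miR-125a-5p at 7949, 6446 and 4896 counts in slick libraries and 0 in every control. With near-equal names merged, the miR-125 total was still called, at a log2 fold change of 2.28 ± 0.23. With control reads of C4 and C6 under ipu-miR-125a added as well, the family held 11551, 9295 and 7166 counts in slick libraries and 6846, 2030 and 5816 in controls (0.69 ± 0.52, adjusted p = 0.515 by edgeR's quasi-likelihood test). The single name chi-miR-125b-5p, counted in every library, was higher at 0.64 ± 0.19. The miR-3618 total, which has no gap and gained no control reads, had a log2 fold change of -1.37 and was called in the first set of totals, and stood at -1.34 and was not called in this set, at an adjusted p of 0.0738, while among families without gaps it stood at -1.42 with an adjusted p of 0.0107 (edgeR's quasi-likelihood test).

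**Figure D2:**
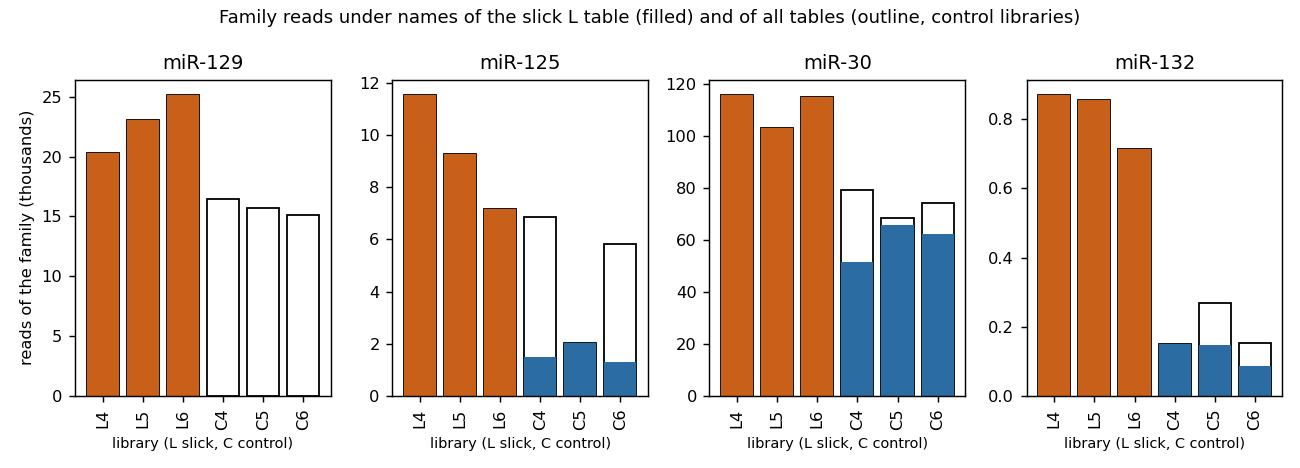
Read counts of 4 families (kilo-reads) in the 3 slick oil 0.5% libraries (L, orange) and the 3 control libraries (C, blue), near-equal names merged. Filled bars use the names of the table of this exposure, and outlines add, for controls alone, the names that other tables list. For miR-129 the filled control bars are at 0 and the outlines reach 16494, 15675 and 15130, while for miR-132 the outlines stay far below the slick bars.

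Where no name of a family had such a gap, names and totals mostly went together. These were 67 families, 63 of which passed the filter, and 20 of the 63 totals were called (31.7%), 9 higher (14.3%) and 11 lower (17.5%), with 29 at an unadjusted p under 0.05. Of the 44 called names 33 belong to them, and 27 of the 33 had a total called the same way. Many of these families hold 1 name, so that name and total are the same counts. For them the counts agree by construction, and the call need not. The totals of miR-458, miR-107, miR-7132, miR-728, miR-93 and miR-152 were called among these 63 and not in the first set of totals. Those of miR-34 and miR-16 were called in neither. The 11 families called in every form of the total include 10 without a gap, miR-132 being the one with a gap.

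In families with gaps, names that differ by a letter or an arm went different ways. Of miR-181, ssa-miR-181b-5p (0.84 ± 0.18) and cfa-miR-181b (0.54 ± 0.17) were higher, hsa-miR-181b-2-3p, named for the other arm of the hairpin, was lower (-0.74 ± 0.18), and the far more abundant sha-miR-181a-5p stood at 19569 ± 1579 CPM in slick libraries and 20418 ± 3911 CPM in controls (SD, n = 3 each, -0.06 ± 0.19). The total of the family was -0.10 and was not called. Of miR-200, an epithelial family, sha-miR-200a was lower (-0.75 ± 0.20) while the total was 0.24, or -0.18 with control reads of other tables. Of let-7, the developmental timing family, ssc-let-7i was lower (-0.53 ± 0.19) while ola-let-7g (0.21 ± 0.18) and mse-let-7a (0.26 ± 0.19) did not pass the test. Such differences were not confined to families with gaps. Of miR-194, which has no gap, ssa-miR-194b-5p was called lower. The miR-194 total stood at -0.04 ± 0.18 among families without gaps and was not called.

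Other names rest on reads that can be listed more than once or elsewhere. The names mdo-miR-128a-5p and ggo-miR-128, of a neural family, had near-equal counts of 90781 and 90810 in L4, and ggo-miR-128 was at 0 in C4 and C5, where mdo-miR-128a-5p held 163970 and 107305. The single name was called lower (-0.80 ± 0.25) and the plain total was -0.14, while the total with near-equal names merged and control names added was -0.78. The name oar-miR-16b was called higher (0.65 ± 0.23), and the miR-16 total with control reads under aca-miR-16a-5p added was -0.34 (adjusted p = 0.505 by edgeR's quasi-likelihood test). In controls aca-miR-16a-5p held 990, 1267 and 937 counts, beside 1083, 1234 and 918 for oar-miR-16b. Whether these are the same reads listed again was not tested, and nothing could be added for the slick libraries.

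**Figure D3:**
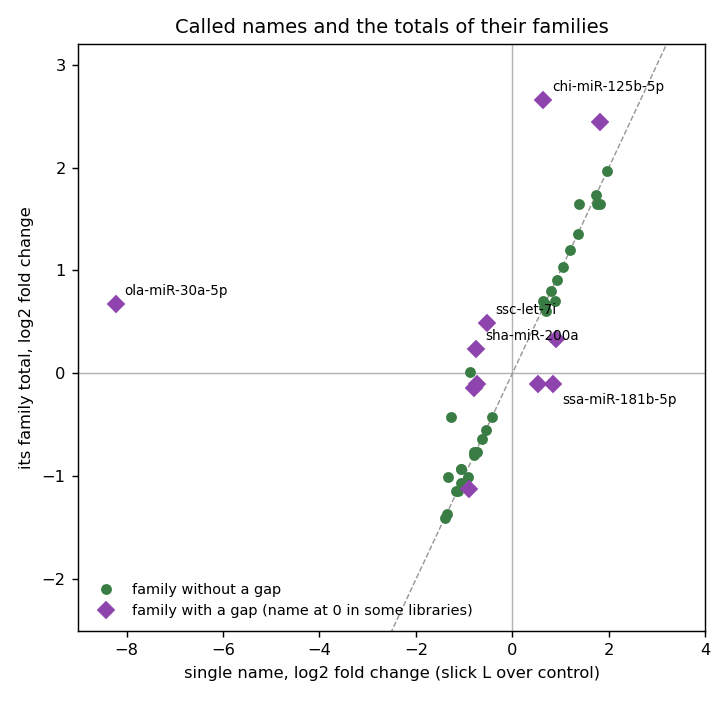
Log2 fold change (slick oil 0.5% over control) of each of the 44 called names on the x axis and of the plain total of its family on the y axis. Circles are families without a gap and diamonds are families in which a name is at 0 in some libraries beside at least 100 counts in others, and the dashed line marks equal values. Most circles lie on the line, where a family of 1 name falls because its total holds the same counts. The diamond farthest from the line is ola-miR-30a-5p, at -8.23 for the name and 0.68 for the total.

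Grouped by tissue or role, the called names were spread over most lists. Of 12 endothelial and smooth muscle names tested, 4 were higher and 0 lower, namely the 3 miR-23 names and tgu-miR-126-5p, beside 38.6% called over all 114 names, 17.5% higher and 21.1% lower. The median was 0.14 over the list and -0.03 over all names. The others, of miR-24, miR-27, miR-145 and miR-221, did not pass the test and lay between -0.74 for oan-miR-145-5p and 0.29 for efu-miR-27b. As family totals, 2 of 7 on this list were higher and 0 lower, beside 9.8% higher and 4.9% lower over all 102 totals. Of 5 blood cell names, 0 were higher and 3 lower, with a list median of -1.06, beside 21.1% lower over all names. These were ssa-miR-144-3p and 2 names of the leukocyte miR-142 with equal counts in every library, which count as 1 measurement (tgu-miR-142-5p and ola-miR-142), at 26.7, 21.8 and 17.6 CPM in slick libraries, against 49.0, 34.9 and 54.0 CPM in controls (-1.06 ± 0.25). The list median includes both of these equal names. As family totals, 1 of 3 blood families was lower, that of miR-144.

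The immune name tgu-miR-155-5p stood at 0.13 ± 0.23. A further miR-142 name, mmu-miR-142b, held 33.4, 3.56 and 3.48 CPM in slick libraries and 5.6, 3.92 and 57.2 CPM in controls, so that 1 library of each group stood far above its group. With this name in the total, miR-142 as a family was not called (-0.92 ± 0.59).

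Of 14 nervous system names, 3 were higher and 3 lower, a share near the 38.6% called over all names, and the list median was 0.03. The higher ones were aca-miR-132-5p and both miR-212 names, and the lower ones were both miR-9 names and mdo-miR-128a-5p. The neuronal ola-miR-124-5p held 126, 130 and 119 CPM in slick libraries and 154, 177 and 163 CPM in controls, which do not overlap, and did not pass the test (-0.39 ± 0.15, adjusted p = 0.0606 by edgeR's quasi-likelihood test). The miR-135 and miR-137 names lay between -0.02 and 0.25.

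Muscle and heart names went both ways, with 1 of 3 higher and 1 lower, beside 17.5% higher and 21.1% lower over all 114 names. Higher was rno-miR-133b-5p, of the muscle family encoded beside miR-206, at 1361, 2140 and 1277 CPM in slick libraries and 588, 1214 and 766 CPM in controls (0.90 ± 0.29). Its lowest slick library exceeded the highest control by a small margin. Its adjusted p was 0.125 without L5, 0.0616 without L4, 0.0837 without C4 and 0.104 without C6. Lower was ggo-miR-499a, described above.

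Cartilage and connective tissue names were lower in 2 of 3 cases, both of miR-214, beside 21.1% lower over all names, and the list median was -0.92. Names of the eye and sensory organs had no call among 4, with chi-miR-182 at 17029 ± 4231 CPM in slick libraries and 17626 ± 2500 CPM in controls (SD, n = 3 each) and ola-miR-204 at 0.16 ± 0.22. Of 4 liver, gut and pancreas names 1 was lower, ssa-miR-194b-5p at 9.28, 9.9 and 7.62 CPM in slick libraries, against 15.5, 18.4 and 15.3 CPM in controls. The islet miRNA ipu-miR-375 stood at 0.07 ± 0.18 and the pancreatic tgu-miR-217-5p at 0.06 ± 0.15.

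In the miR-17-92 clusters, 2 of 10 names were higher and 0 lower, sha-miR-92a and dre-miR-93 (0.68 ± 0.21), and the list median was 0.33. Over all names 17.5% were higher and 21.1% lower. Of the 6 names of the miR-130, miR-301 and miR-454 group, 1 was higher and 2 were lower. hsa-miR-130b-5p was at 0.69 ± 0.20, and ssa-miR-301a-5p and dre-miR-301c-5p were at -0.73 ± 0.17 and -0.80 ± 0.21. Of the miR-15, miR-16, miR-103 and miR-107 group 2 of 3 were higher, ipu-miR-107b (0.92 ± 0.24) and oar-miR-16b. The p53-linked aca-miR-34b-5p, at 57.9, 60.5 and 43.7 CPM in slick libraries and 13.6, 33.2 and 32.0 CPM in controls, was called higher (1.04 ± 0.33, adjusted p = 0.0328 by edgeR's quasi-likelihood test) with an adjusted p of 0.0969 without L4, 0.106 without L5 and 0.0516 without C4.

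Of 12 names first described in fish, 3 were higher and 2 lower, beside 17.5% higher and 21.1% lower over all names. The lower ones were dre-miR-737-5p and hhi-miR-728 (-0.64 ± 0.20). The maternal clearance miRNA ola-miR-430a stood at 2121 ± 315 CPM in slick libraries and 2185 ± 311 CPM in controls (SD, n = 3 each). Of 5 chromatin-linked names 3 were lower, beside 21.1% over all names, with a list median of -0.55. Of 4 names of the Hox clusters none was called. Of 3 epithelial names 1 was lower, of 5 developmental timing names 1 was lower, of 2 names of the miR-99, miR-100 and miR-125 clusters 1 was higher, and of 9 names abundant in most tissues 2 were higher and 3 lower.

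**Figure D4:**
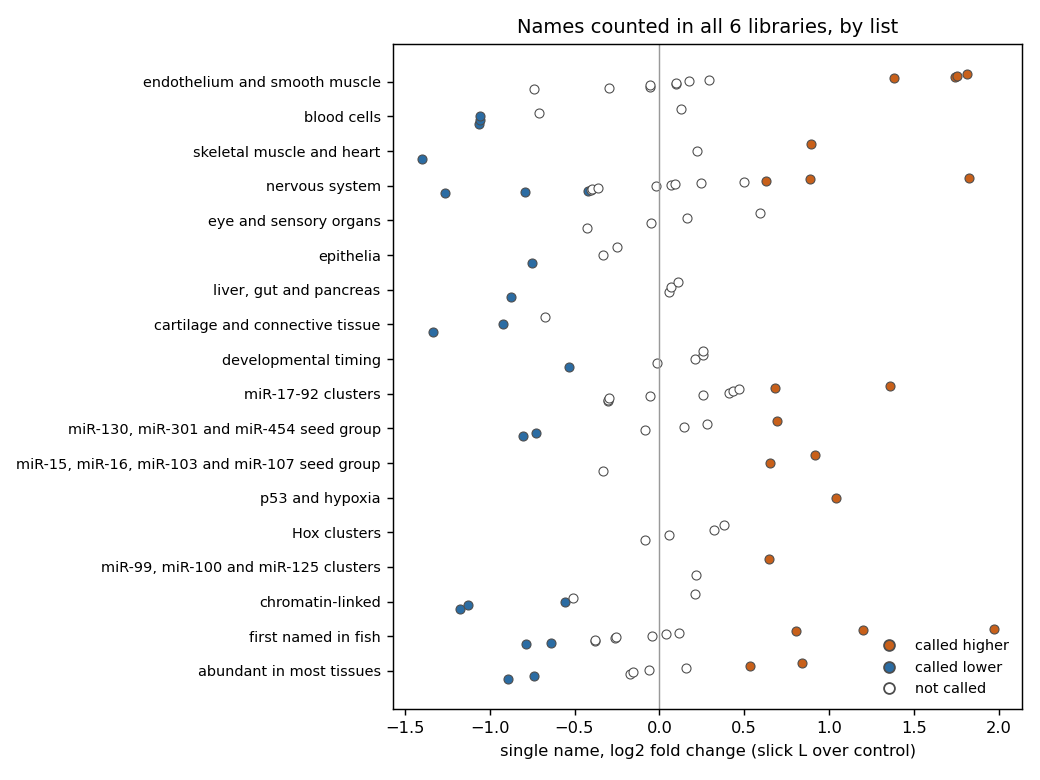
Log2 fold change (slick oil 0.5% over control) of the names counted in all 6 libraries, 1 point per name and 1 line per list, with called names filled. ola-miR-30a-5p (-8.23) lies outside the axis. The 4 called names of endothelium and smooth muscle lie above 0, and the 3 called names of blood cells lie near -1.06.

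Compared directly with the higher slick doses, the 0.5% group did not show a single name past the threshold. Of 107 names tested against slick oil 1%, 0 were called (0.0%) by edgeR's quasi-likelihood test, 23 had an unadjusted p under 0.05 and DESeq2 called 10, and the smallest adjusted p was 0.0731. The edgeR count was 1 without M4 and 24 without M5, both libraries of the 1% group. Of 109 names tested against slick oil 2%, 0 were called (0.0%), 13 had an unadjusted p under 0.05 and DESeq2 called 3, and the edgeR count was 1 without library H6 of the 2% group. Of 101 family totals against slick oil 2%, 0 were called (0.0%), with 4 at an unadjusted p under 0.05. Among the single names tested against slick oil 2%, the smallest p was for ola-miR-731, at 706, 445 and 563 CPM in slick 0.5% libraries, against 281, 226 and 349 CPM in slick 2% libraries (adjusted p = 0.217 by edgeR's quasi-likelihood test). A missed threshold does not show that the doses act alike.

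Among the names nearest the threshold against the 1% group were some that had been called between the 0.5% group and control. aca-miR-132-5p stood at 70.2, 74.5 and 67.3 CPM in slick 0.5% libraries, against 24.1, 37.4 and 38.5 CPM in slick 1% libraries (log2 difference 1.08 ± 0.25, adjusted p = 0.0731 by edgeR's quasi-likelihood test). As a family total miR-132 was the 1 of 103 called in that comparison (0.971%), at 101, 111 and 99.7 CPM in slick 0.5% libraries and 31.5, 26.1 and 33.0 CPM in slick 1% libraries (1.79 ± 0.21, adjusted p = 0.0358). The slick 0.5% total also holds ssa-miR-132-3-5p (410, 407 and 339 counts). The doses can be listed under different names of a family, and the part of this in the larger difference of the total was not tested. ggo-miR-499a differed by -0.90 ± 0.22 and sha-miR-92a by 0.83 ± 0.19, and for these names the libraries of the doses did not overlap, as for 29 of all 107 names (27.1%).

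Set side by side, with the reminder that all exposures share the same 3 controls, the log2 fold changes over control of ggo-miR-499a were -1.40 at 0.5%, -0.52 at 1% and -1.58 at 2%. Those of sha-miR-92a were 1.36, 0.52 and 1.19, and those of aca-miR-132-5p were 1.83, 0.74 and 1.93, in the same order. For these miRNAs the middle dose lay nearest to the controls. They were taken from the names nearest the threshold between 0.5% and 1%, so the order of those doses was largely fixed by that choice. The middle dose was also the lowest for ssa-miR-734-5p, at 0.81, 0.78 and 1.44, and for oar-miR-23b, at 1.75, 1.30 and 2.03. Of the 41 names called at 0.5% that could be tested at the other doses, 5 were called the same way at 1%, where 4.46% of all names were called, and 27 at 2%, where 27.4% were.

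Source oil at the same nominal 0.5% gave another picture. In a direct test of slick oil against source oil 45 of 111 names were called (40.5%), 24 higher (21.6%) and 21 lower (18.9%) in slick oil, and 57 had an unadjusted p under 0.05. The count was 28 without L6. The libraries of source oil 0.5% stood apart from all others on the first principal component of 15 libraries (50.6% of the variance over 102 names), at 11.7, 8.89 and 7.76 against at most 0.71 elsewhere, and the part of this in the results was not tested. With scaling by total counts alone the median log2 difference moved by 0.28 and the split was 31 higher and 15 lower. The labels give the nominal dilution and not the hydrocarbons dissolved, so equal percentages need not be equal doses.

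Of the names called between slick oil 0.5% and control, 39 could be tested in that comparison and 14 were called, no more often than the 40.5% of all names. sha-miR-92a held 24544, 27519 and 24346 CPM in slick libraries, against 1392, 2150 and 3947 CPM in source oil libraries (log2 difference 3.35 ± 0.40, adjusted p = 0.000262 by edgeR's quasi-likelihood test). tgu-miR-126-5p held 11650, 27379 and 27366 CPM in slick libraries, against 818, 4141 and 5106 CPM in source oil libraries (2.72 ± 0.60), and ola-miR-462 held 963, 1958 and 1594 CPM in slick libraries, against 114, 240 and 436 CPM in source oil libraries (2.52 ± 0.49). All 3 were separated without overlap, as were 61 of the 111 names (55.0%), and all 3 had been higher in slick oil 0.5% than in control.

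In the other direction ola-miR-142 held 24.2, 19.3 and 15.5 CPM in slick libraries, against 97.8, 48.9 and 34.2 CPM in source oil libraries (-1.62 ± 0.42, adjusted p = 0.0114 by edgeR's quasi-likelihood test). ssc-let-7i held 357, 348 and 467 CPM in slick libraries and 902, 730 and 801 CPM in source oil libraries (-1.06 ± 0.28). As family totals 5 of 104 were called (4.81%). They were miR-30 (1.22 ± 0.18), miR-92 (3.25 ± 0.49), miR-454 (3.30 ± 0.50) and miR-16 (2.45 ± 0.41), higher in slick oil (3.85%), and miR-187 (-1.43 ± 0.24), lower in slick oil (0.962%). Reads of a family can be listed under different names in the oils, as control reads of miR-30 and miR-16 were above. The part of this in these totals was not tested.

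Set against the shared controls, ssa-miR-734-5p was at 0.81 in slick oil and 1.26 in source oil, aca-miR-34b-5p at 1.04 and 2.41, and oha-miR-9-4-5p at -1.27 and -2.10. Of the 38 names called in slick oil 0.5% that could be tested in source oil 0.5%, 15 were called the same way and 3 the other way, and 13 had the opposite sign. Over all names 50.5% were called in source oil, so these were called about as often as any name. The 3 were sha-miR-92a (-1.71 ± 0.35 in source oil), ssa-miR-7132b-5p (1.02 ± 0.29) and ssc-let-7i (0.84 ± 0.23).

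**Figure D5:**
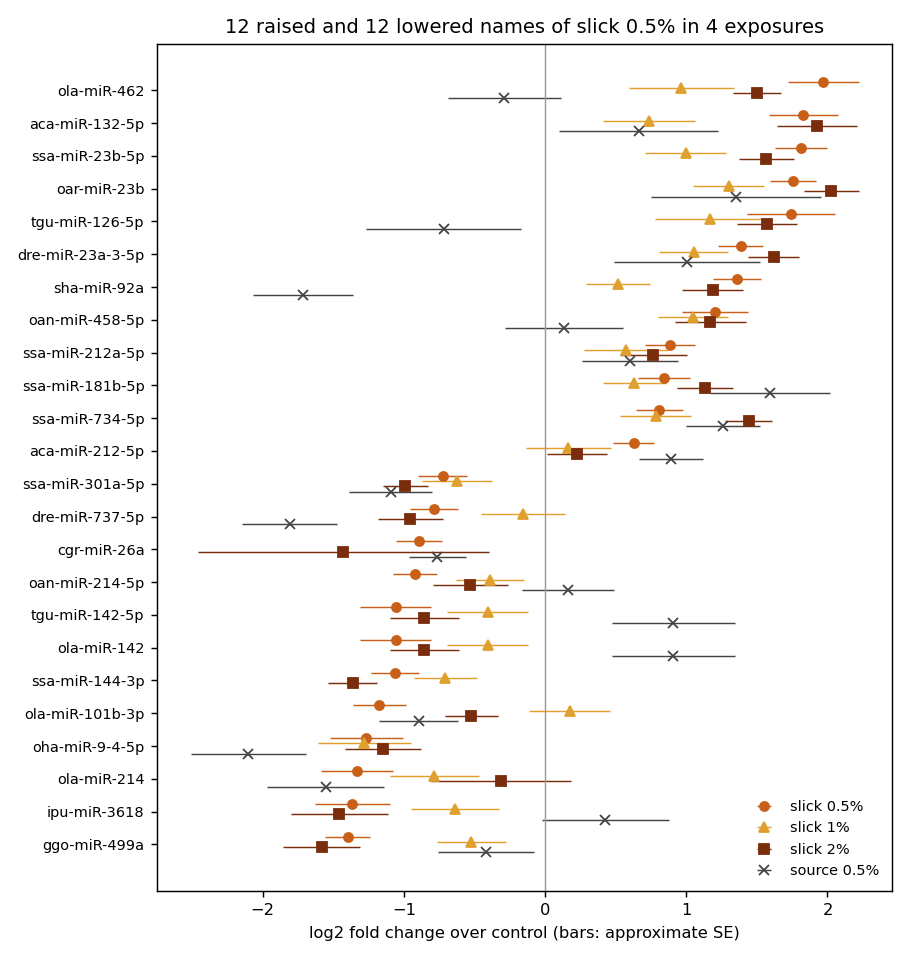
Log2 fold change over the shared controls, with its approximate SE, of 12 raised and 12 lowered names of slick oil 0.5% (circles), beside slick oil 1% (triangles), slick oil 2% (squares) and source oil 0.5% (crosses). Missing symbols are names that could not be tested there. sha-miR-92a is at 1.36, 0.52 and 1.19 in the slick doses and at -1.71 in source oil.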

How the data were processed

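Small RNA of whole larvae was sequenced on an Illumina NextSeq, per the labels and series text. The authors deposited 1 table of raw read counts per exposure, with mature miRNA names as features, per the file headers; how the reads were aligned and counted is not given in the sources used here. The authors also deposited a result table, per the file headers, that holds for each name the scaled signal averaged over each group, the difference of these means (a score), a p-value, its adjusted form and a log2 fold change. DESeq2, without a version, is named in the submitters' processing notes.

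Where a name stood on 2 lines (1 case), the higher count in each library was taken. Columns carry other numbers than the sample titles and were joined to groups alone, and 0 columns belonged to no sample. Samples titled mass were taken as source oil. Names with a count above 0 in all 6 libraries, and family totals (species prefix, letter and arm dropped, names of equal counts taken once), were filtered with filterByExpr (min.count 10, min.total.count 15) and fitted with TMM factors by glmQLFit and glmQLFTest of edgeR 4.0.16 (R 4.3.3). P-values were adjusted over all features tested, with calls under 0.05. The SE of a log2 fold change is its size divided by the root of F. Near-equal names lie within 2% of each other in every library where both are counted, with at least 100 counts in one. Family totals do not separate miRNAs of near-identical sequence. Alternatives were DESeq2 1.42.0, other scalings, filters and totals, and leaving out each library. The fitting steps were tested on simulated data.

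Named miRNAs were those called without overlap between groups, up to 12 each way by smallest p for names and families, list members given by counts with examples (called ones first), called names whose total disagrees, and names called in the direct comparisons as well. The members, lists and rules were chosen with earlier results of these data known.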

Additional observations from a re-analysis of the deposited data

Results flagged for a closer look

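For 10 names called between slick oil 0.5% and control, the log2 fold change over control had different signs in slick oil 0.5% and source oil 0.5%. They also passed the direct test of slick against source oil (adjusted p under 0.05, edgeR's quasi-likelihood test). Of the names called against control, 13 of 38 had the opposite sign in source oil. In the direct test 14 of 39 were called, beside 40.5% of all 111 names. That test uses the same slick libraries that selected these names, so it is not a separate test of them. Higher in slick than in source oil were sha-miR-92a (log2 difference 3.351), tgu-miR-126-5p (2.722), ola-miR-462 (2.519) and hsa-miR-130b-5p (1.101). Lower in slick oil were tgu-miR-142-5p and ola-miR-142 (-1.619 each, equal counts), ssa-miR-7132b-5p (-1.46), ipu-miR-3618 (-1.44), ssc-let-7i (-1.055) and ola-miR-101a-5p (-0.9882). ipu-miR-3618 overlapped between the oils, with 42.5, 26.2 and 20.8 CPM in slick libraries and 133, 70.7 and 38.5 CPM in source oil libraries. The calls held in all 8 alternatives on single names for sha-miR-92a, ola-miR-462, tgu-miR-126-5p and ssa-miR-7132b-5p. Those alternatives were DESeq2, scaling by total counts and leaving out each library. Of the family totals of these names, only that of miR-92 was called between the oils. The source oil 0.5% libraries stand apart from all others used here, and the part of this in these differences was not tested.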

How the results depend on the processing

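For single names of slick oil against control the count of 44 was 23 (13 higher, 10 lower) when names with zeros were kept, and 29 to 45 with 1 library left out (29 without L5). For family totals the count of 15 was 25 with DESeq2, 26 over names counted in all libraries, and 4 to 15 with 1 library left out. With those names alone miR-30 reversed to -4.219, its total then resting on ola-miR-30a-5p and oar-miR-30d. Against slick 1% the count of 0 was 10 with DESeq2, 4 with total counts, 1 for family totals and 0 to 24 with 1 library left out. Against slick 2% it was 3 with DESeq2 and 0 to 1 with 1 library left out. Against source oil the count of 45 was 5 for family totals and 28 to 64 with 1 library left out (28 without L6, 64 without H3). Calls held under every alternative for 19 of 44 names and, with the block below, 1 of 15 family totals (miR-23). The merging of near-equal names, the highest name per library, gap-free families, controls with further names and the block were added after the data were seen. The numbers in the column names differ from those in the titles. With the column number as a replicate block, 37 names and 1 family total were called against control, and 0 names against slick 1% and slick 2%. Same-numbered slick and control libraries did not all deviate together (correlations over 114 names of -0.233, 0.541 and -0.524 for 4, 5 and 6). Among pairs with different numbers, L4 and C6 stood at 0.567 and L6 and C4 at 0.626, and the rest between -0.402 and -0.128. Whether any libraries share a beaker or batch cannot be told from these values. Source oil columns carry other numbers, and no block could be fitted there.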

Other observations

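For several tissue families the values of slick oil 0.5% rest on names that are listed at 0 in whole libraries. The muscle family miR-1 had 392738, 631822 and 0 counts in slick libraries under ssa-miR-1-5p, and 0, 467176 and 358446 in controls, with 409288 counts of C4 listed as tgu-miR-1-2-5p in another table, and the fitted log2 fold change of its total was 0.06 ± 3.77 SE. The smooth muscle family miR-143 had 4332, 0 and 0 counts in slick libraries and 0 in every control, while other tables hold 8851 (rno-miR-143-5p), 6724 and 7204 counts (chi-miR-143-5p) for the same controls. The liver name tch-miR-122-5p had 25103, 0 and 0 counts in slick libraries and 0, 16891 and 0 in controls, and other tables hold 36469 counts of C4 (ccr-miR-122) and 22177 of C6 (ipu-miR-122). The epithelial name ipu-miR-203b had 270165, 0 and 0 counts in slick libraries and 0 in every control, where dre-miR-203b-5p of another table holds 161189, 261178 and 229868. The miR-203 total, which also holds pma-miR-203a-3p, was at 3.15 ± 1.59 and was not called (adjusted p = 0.297 by edgeR's quasi-likelihood test), and it was at -1.43 ± 1.53 with the control reads of other tables. The tables used here hold no further names for L5 and L6.

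Some names with counts in every library still follow the same pattern. ola-miR-218b had 48900, 41665 and 40717 counts in slick libraries and 19682, 15463 and 47606 in controls, and ipu-miR-218a of the same family had 48963, 0 and 40675 in slick libraries and 59692, 49811 and 47552 in controls. mdo-miR-10b-5p had 15201, 15099 and 17013 counts in slick libraries and 12971, 10442 and 9310 in controls, beside 15175, 15087 and 16970 in slick libraries and 12940, 15490 and 14825 in controls for sha-miR-10b. No call was made for them. mmu-miR-466i-5p, for which 59.6 CPM in L6 and 99.4 CPM in C4 stand beside 5.72 to 10.6 CPM in the other libraries, was not called.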
